A study of Mus musculus with 26 samples.

Results

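Inversional joins to Sγ1, the switch (S) region upstream of the IgG1 constant exons, were examined in CSR-HTGTS libraries of activated mouse splenic B cells. A join was included when its prey position lay on chromosome 12 between positions 114558000 and 114587999 of mm9 and its prey was read on the plus strand, whatever its filter marks. There were 61811 such joins among the 777800 joins of the 26 libraries, beside 370343 deletional joins (minus strand) in the same window. The IgH locus is transcribed from the minus strand, so upstream means higher coordinates throughout. The B cells were CD43-negative splenocytes of 6 to 8 week-old 129Sv mice, either WT or homozygous for A150, an allele in which the Iγ3 promoter is replaced by a pre-rearranged VDJ exon with its VH promoter and the Eµ enhancer. In A150 mice an IgG3 receptor supports B cell development, and endogenous VH to DJH joining is strongly reduced, so that most alleles carry a DJH at Sµ. Per the labels, cells were cultured for 96 h (the study's text gives differing lengths of culture) with anti-CD40 and IL4, or with a mix that the labels give as aCD40/IL4/IL5/TGFb/b-Lys (hereafter TGF-β mix), so both conditions contained IL4. Libraries were primed upstream of Sµ or upstream of Sγ3, and genomic DNA, not RNA, was read.

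Class switch recombination (CSR) replaces the constant exons expressed with VDJ by joining breaks in a donor and an acceptor S region, both opened by the cytidine deaminase AID. A break in Sγ1 leaves an upstream and a downstream end. Joining the donor to the downstream end deletes the DNA in between and can give a productive switch to IgG1. Joining it to the upstream end inverts that DNA, which yields no IgG1. Physiological CSR is known for favouring deletion, and inversional joins therefore report the other end of the same kind of break. S regions are rich in the palindrome AGCT, which presents AID hotspots on both strands. The joined ends may share a few bases (microhomology, MH), meet with no shared base (direct joins) or be separated by inserted bases.

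The junctions of the A150 anti-CD40+IL4 libraries show what these classes look like. They are given to let the inversional prey be compared with the bait that it joined. Each is read 5′ to 3′ from the bait, with bait bases and any inserted base in lower case and prey bases in capitals. Where the ends share bases, the shared bases are the first capitals. The inversional prey reads upward along the plus strand of Sγ1, whereas the deletional prey reads down the minus strand. With the Sµ bait, the join with an inserted base (t) led from the bait at chr12:114668845-114668869 to chr12:114578064-114578088. The direct join led from chr12:114668704-114668728 to chr12:114578778-114578802. The join with 2 shared bases led from chr12:114668754-114668778 to chr12:114578600-114578624, and the join with 8 led from chr12:114668856-114668880 to chr12:114568060-114568084. The deletional example, with 5 shared bases, led from chr12:114668795-114668819 to chr12:114567448-114567472.
Sµ, inversional, 1 inserted base: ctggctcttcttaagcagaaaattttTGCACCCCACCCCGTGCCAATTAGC
Sµ, inversional, direct: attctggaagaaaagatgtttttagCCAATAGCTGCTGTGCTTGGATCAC
Sµ, inversional, 2 shared bases: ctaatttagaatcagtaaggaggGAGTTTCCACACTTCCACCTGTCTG
Sµ, inversional, 8 shared bases: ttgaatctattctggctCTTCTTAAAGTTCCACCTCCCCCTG
Sµ, deletional, 5 shared bases: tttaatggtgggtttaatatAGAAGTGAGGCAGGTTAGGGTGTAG

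With the Sγ3 bait, the inversional examples led to chr12:114575989-114576013 (inserted a), chr12:114576814-114576838 (direct), chr12:114576906-114576930 (2 shared bases) and chr12:114577662-114577686 (5 shared bases). Their baits ended at 114606283, 114606283, 114606163 and 114606210, respectively. The deletional example, with 6 shared bases, led from chr12:114606295-114606319 to chr12:114577748-114577772.
Sγ3, inversional, 1 inserted base: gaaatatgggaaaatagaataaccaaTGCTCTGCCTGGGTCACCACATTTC
Sγ3, inversional, direct: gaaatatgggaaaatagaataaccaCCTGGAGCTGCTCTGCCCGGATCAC
Sγ3, inversional, 2 shared bases: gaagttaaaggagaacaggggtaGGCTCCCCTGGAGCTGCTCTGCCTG
Sγ3, inversional, 5 shared bases: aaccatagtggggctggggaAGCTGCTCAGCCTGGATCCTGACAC
Sγ3, deletional, 6 shared bases: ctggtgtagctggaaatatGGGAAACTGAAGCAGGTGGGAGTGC

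Depth differed widely. The 20 libraries other than the WT libraries with the Sγ3 bait held 3925 to 64789 Sγ1 joins and 339 to 9733 inversional ones, and every test below is over these libraries. The 6 WT libraries with the Sγ3 bait held 3 to 42 Sγ1 joins. Of the inversional joins, 47070 carried the authors' mark for low mapping quality, which within the window lies between 114568783 and 114577174, the repetitive core of Sγ1. A marked join may belong to another repeat, and whether its strand is as certain as that of an unmarked join was not tested. The 61811 joins represent 47716 distinct combinations of library, bait end, prey position and overlap. In the 20 libraries tested, between 63.0% and 90.9% of the inversional joins of a library were distinct. The study counts independent mice for these assays, but no label ties a library to a mouse, so p-values measure the spread between these libraries, which may be technical.

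Inversional joins made up a larger share of all Sγ1 joins in A150 than in WT B cells when Sµ was the donor. With anti-CD40+IL4, the share was 10.1%, 11.5% and 11.6% in the WT libraries and 14.02%, 17.7%, 14.1% and 14.2% in the A150 libraries. With the TGF-β mix, it was 8.64%, 8.999% and 8.79% in WT and 12.2%, 13.4% and 13.2% in A150. The lowest A150 library lay above the highest WT library in each condition. The group means were 15.0% ± 1.81 (SD, n = 4) against 11.1% ± 0.815 (SD, n = 3), and 12.9% ± 0.648 (SD, n = 3) against 8.81% ± 0.182 (SD, n = 3). The difference over both conditions was 4.01 percentage points (exact stratified permutation test over 700 arrangements, two-sided p = 0.00143, the smallest it allows, and 0.00612 adjusted over 15 tests). Without joins marked for mapping the difference was 9.003 points (adjusted p = 0.0107, same exact test). With the Sµ bait, 83.3% of inversional and 91.0% of deletional joins were marked (means, n = 13 libraries). The value without them thus describes a small part of the joins, weighted to the edges of Sγ1. In terms of counts, 12.5 ± 1.02 inversional joins accompanied every 100 deletional joins in WT and 17.7 ± 2.56 in A150 with anti-CD40+IL4 (SD, n = 3 and 4). With the TGF-β mix the corresponding values were 9.66 ± 0.219 and 14.8 ± 0.852 (SD, n = 3 each).

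The gap between the genotypes was larger at Sγ1 than at Sε, the S region of IgE, which IL4 also induces. With the Sµ bait, the inversional share of Sε joins was 7.79% ± 0.520 in WT and 7.12% ± 0.516 in A150 with anti-CD40+IL4 (SD, n = 3 and 4). With the TGF-β mix it was 6.31% ± 3.77 and 7.20% ± 0.577 (SD, n = 3 each), and the WT libraries there held only 72 to 119 Sε joins. The excess of Sγ1 over Sε was 3.90 points larger in A150 than in WT (exact stratified permutation test, p = 0.00429, 0.00600 adjusted over 7 tests added after the data had been seen), and 8.89 points larger without marked joins (adjusted p = 0.00250, exact). Within the Sµ libraries the Sγ1 share exceeded the Sε share by 5.08 points on average (permutation of signs over 13 libraries, p = 0.000490, adjusted 0.00245), and by 13.1 points without marked joins (adjusted p = 0.000900).

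**Figure D1:**
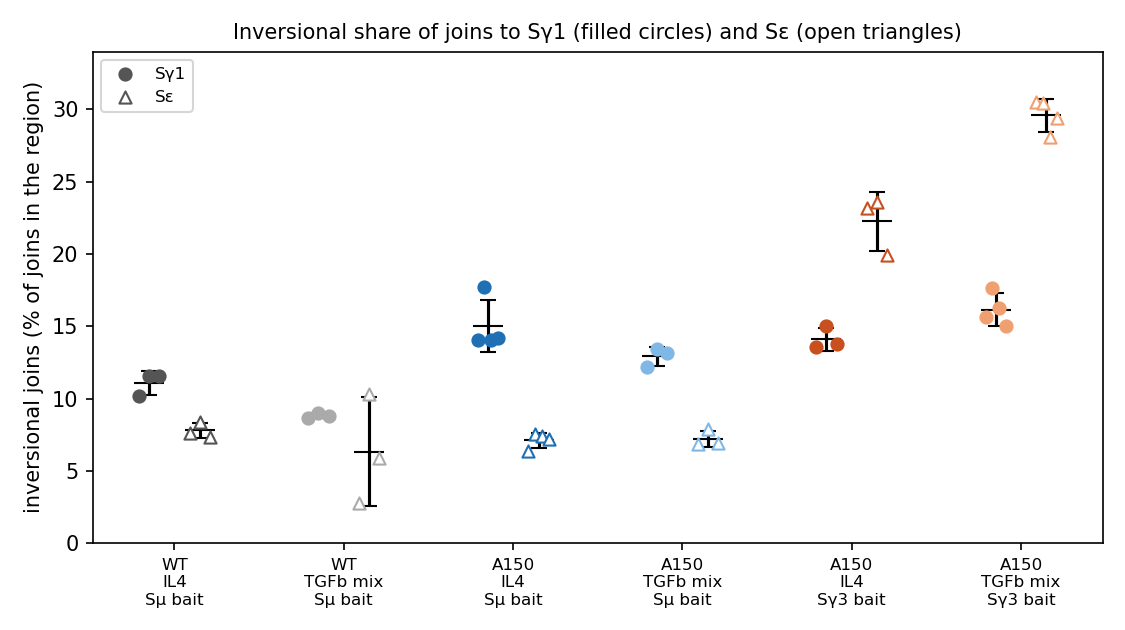
Inversional joins as a percentage of all joins to Sγ1 (filled circles) or Sε (open triangles) in each library, by genotype, stimulation and bait, with the mean and SD of each group as bars. The A150 libraries with the Sµ bait lie at 12.2% to 17.7% for Sγ1, above the WT libraries at 8.64% to 11.6%, and the Sε share lies above the Sγ1 share in the Sγ3 bait libraries.

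With Sγ3 as the donor, the inversional share of Sγ1 joins in A150 cells overlapped that with Sµ after anti-CD40+IL4, and its values lay above that with Sµ after the TGF-β mix. The 3 anti-CD40+IL4 libraries gave 13.5%, 15.02% and 13.8%, against 14.02% to 17.7% in the Sµ libraries of the same genotype and stimulation. The 4 TGF-β mix libraries gave 15.6%, 17.6%, 16.3% and 15.0%, all above the 3 Sµ libraries of the same genotype and stimulation. The bait difference was -0.89 points in the former and 3.22 points in the latter (exact permutation test, p = 0.0286, the smallest it allows, adjusted 0.167 over 35). Over both conditions it was 1.17 points and did not pass the test (exact stratified permutation test, p = 0.222), whereas without marked joins it was 7.02 points (adjusted p = 0.0107). The difference between conditions is given in the closing section. Against Sε the Sγ3 bait gave the opposite order to the Sµ bait. The Sε share was 22.2% ± 2.02 (SD, n = 3) and 29.6% ± 1.14 (SD, n = 4), and the Sγ1 share lay below it in all 7 libraries, by 11.2 points on average (exact permutation of signs, p = 0.0156, the smallest it allows, adjusted 0.0195). This order held only with marked joins included, since without them the difference was 4.98 points the other way. All mapping marks but 1 in the deposited tables lie in Sγ1, so leaving them out removes joins of the Sγ1 core and hardly any of Sε. With them kept, ambiguous joins of the Sγ1 core stand beside Sε joins of which hardly any carry the mark. Within the Sγ1 window, 122505 joins carried a duplicate mark, and all of these also carried the mapping mark.

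In WT cells, the libraries with the Sγ3 bait held few joins of any kind, 31 to 102 within IgH, of which 86 of 256 with anti-CD40+IL4 and 22 of 106 with the TGF-β mix lay in Sγ1. The libraries with anti-CD40+IL4 gave 6 inversional of 28 Sγ1 joins (21.4%, 95% Wilson interval 10.2 to 39.5), 0 of 16 and 3 of 42 (7.14%, 2.46 to 19.0). A count of 0 of 16 allows a share of up to 18.8%, taken as 3 counts of 16, and its Wilson interval ends at 19.4%. The libraries with the TGF-β mix gave 2 of 12, 2 of 7 and 0 of 3. No difference from A150 was detectable at this depth, since intervals as wide as these hold every A150 value. Intervals and limits cover counting error only.

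The difference in inversional share between stimulations had opposite signs with the 2 baits and passed no adjusted test. It was lower with the TGF-β mix by 2.27 points in WT and by 2.08 points in A150 with the Sµ bait, and higher by 2.03 points in A150 with the Sγ3 bait. The libraries of the 2 conditions did not overlap with the Sµ bait in either genotype, but these designs gave exact permutation p = 0.100 in WT and 0.0857 in A150, and 0.0857 with the Sγ3 bait (adjusted 0.233 over 35 for each). The mean of the 3 differences, in which opposite signs partly cancel, was -0.78 points (exact stratified permutation test, p = 0.267).

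Inversional joins were spread unevenly along Sγ1, with a shoulder on the upstream side that deletional joins lacked. Positions are given by 1-kb bins in mm9. In A150 cells, the bin with the most inversional joins was chr12:114576000-114576999 with either bait, which held 15.8% ± 1.60 of them for Sµ and 17.9% ± 1.32 for Sγ3 (SD, n = 7 libraries each). Over both stimulations, the next bins with the Sµ bait were chr12:114574000-114574999 with 14.2% ± 1.25 and chr12:114575000-114575999 with 13.9% ± 0.951, which stood in the other order after anti-CD40+IL4 (13.9% and 14.3%). For Sγ3 the next bin was chr12:114578000-114578999, at the upstream edge, with 12.5% ± 1.84, followed by chr12:114572000-114572999 with 12.5% ± 0.414. The upstream bin ranked next only with the TGF-β mix (13.5%), since after anti-CD40+IL4 its 11.2% lay below chr12:114574000-114574999 (12.9%), chr12:114575000-114575999 (12.6%) and chr12:114572000-114572999 (12.5%). In that upstream bin, deletional joins with the Sγ3 bait amounted to only 1.55% of all deletional joins with anti-CD40+IL4 and 2.99% with the TGF-β mix. In WT cells with the Sµ bait, chr12:114576000-114576999 held the most inversional joins only with the TGF-β mix (17.5%). After anti-CD40+IL4 it held 12.9%, below chr12:114574000-114574999 with 16.3%. The upstream bin chr12:114578000-114578999 held 2.40% of WT inversional joins after anti-CD40+IL4 and 4.62% after the TGF-β mix.

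The upstream 3 kb, chr12:114577000-114579999, was the part of Sγ1 where inversion came closest to or passed deletion. In A150 cells with the Sµ bait, 45.5%, 51.7%, 44.9% and 52.4% of the joins there were inversional after anti-CD40+IL4, and 38.1%, 43.8% and 33.7% after the TGF-β mix. In WT cells the values were 27.1%, 24.6% and 24.3%, and 19.6%, 23.6% and 23.3%. No A150 library overlapped a WT library. The genotype difference was 19.8 points here (exact stratified permutation test, p = 0.00143, 0.00250 adjusted over the 7 added tests), and 3.46 points over the 7 kb that follow, chr12:114570000-114576999 (p = 0.00143, adjusted 0.00250). The Sγ3 bait gave 43.1% ± 0.886 (SD, n = 3) and 39.1% ± 1.15 (SD, n = 4) in the upstream 3 kb. In the most upstream bin of these 3 kb, chr12:114579000-114579999, the share reached 77.2% ± 9.49 in A150 with the Sµ bait and anti-CD40+IL4 (SD, n = 4), from 101 inversional and 28 deletional joins. It was 60.4% ± 21.5 there in A150 with the TGF-β mix, and 66.2% ± 12.1 (20 inversional and 10 deletional joins) and 52.4% ± 4.12 in WT with anti-CD40+IL4 and the TGF-β mix (SD, n = 3 each), so inversional joins outnumbered deletional ones in both genotypes and the groups overlapped. At the downstream edge, chr12:114567000-114569999, it fell to between 5.46% ± 0.670 (WT, TGF-β mix) and 12.9% ± 2.34 (A150, Sγ3 bait, TGF-β mix). These 3 stretches were set after the bins had been seen. No join above 114577174 carries a mapping mark. In the upstream 3 kb the genotype difference was 21.7 points without the marked joins (exact, adjusted p = 0.00250), and 2.58 points among the marked joins alone (exact, adjusted p = 0.221).

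**Figure D2:**
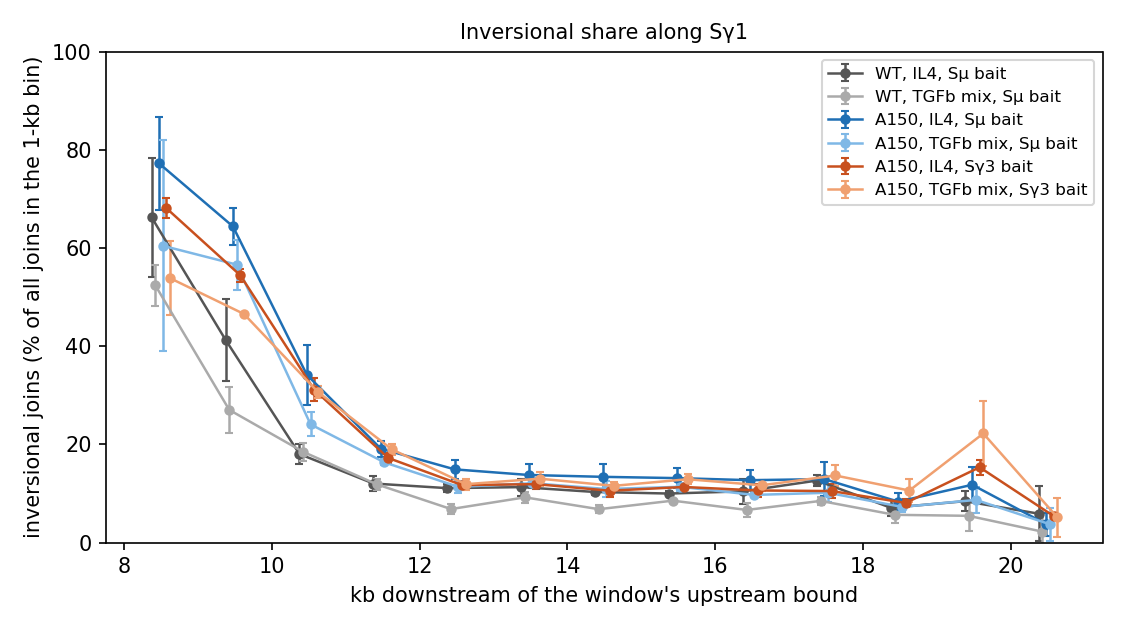
Inversional joins as a percentage of all joins in each 1-kb bin of Sγ1, plotted against the distance in kb downstream of the window's upstream bound, as means with SD over the libraries of each of the 6 groups. The mean share is 52.4% or more in the first bin shown. In the bins of the core, from 114570000 to 114576999, it lies between 6.65% and 19.1%. The lowest of these means is that of WT with the Sµ bait and TGF-β mix in the bin from 114571000. The highest is that of A150 with the Sµ bait and anti-CD40+IL4 in the bin from 114576000. In the second bin the A150 means (46.5% to 64.4%) lie above the WT means (27.0% and 41.3%), whereas in the first bin they overlap.

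Along the window, the median inversional join sat upstream of the median deletional join in all 20 libraries tested. The former lay 13655 ± 270.1 bp from the window's upstream bound with the Sµ bait, and the latter 14360 ± 131 bp (SD, n = 13 libraries). The difference was -706 bp (permutation of signs, p = 0.000180, adjusted 0.00180), and -4532 bp without marked joins (adjusted p = 0.000900). Over all libraries, 10265 of the 14741 unmarked inversional joins lay outside chr12:114568783-114577174, where the marked joins lie. Medians without marked joins therefore describe a different set of positions, weighted to the edges of Sγ1. With the Sγ3 bait the medians were 12730 ± 304 bp and 13886 ± 185 bp (SD, n = 7), a difference of -1156 bp (exact permutation of signs, p = 0.0156, adjusted 0.0195). With Sγ3 as donor the inversional median lay further upstream than with Sµ in A150 cells, the difference being -763 bp (exact stratified permutation test, p = 0.000816, the smallest it allows, adjusted 0.00612). Groups did not overlap, with 12792 to 13217 bp against 13467 to 13863 bp after anti-CD40+IL4, and 12417 to 12597 bp against 13325 to 13509 bp after the TGF-β mix. It lay further upstream with the TGF-β mix as well, by a difference of -405 bp over the 3 pairs of groups (exact stratified permutation test, p = 8.16e-05, adjusted 0.00122). WT libraries with the Sµ bait went from 13805, 14184 and 13989 bp to 13338, 13720 and 13628 bp. The genotype difference of -248 bp did not pass the adjusted test (exact stratified permutation test, p = 0.0357, adjusted 0.107), and was -618 bp without marked joins (adjusted p = 0.0214). Bait and stimulation differences were smaller and did not pass without the marked joins (-205 and -341 bp, adjusted p = 0.110 and 0.0885) or on the marked joins alone (-194 and -175 bp, adjusted p = 0.0765 and 0.0620, exact permutation tests).

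**Figure D3:**
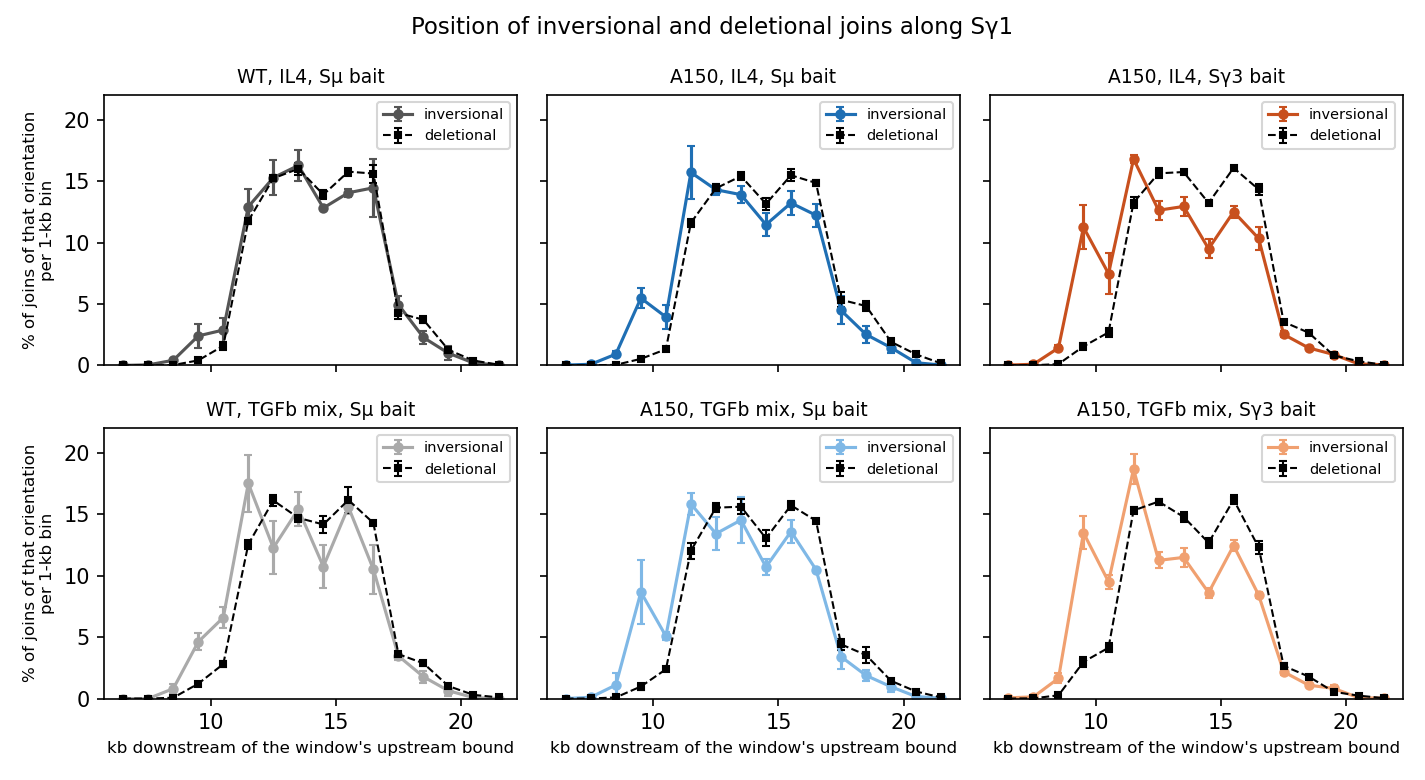
Distribution of inversional joins (coloured circles) and deletional joins (black squares) over 1-kb bins of Sγ1 in each group, as the mean percentage of the joins of that orientation with SD over libraries, against the distance in kb downstream of the window's upstream bound. The inversional curves carry a shoulder at 9 to 10 kb that is highest with the Sγ3 bait.

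At the level of single bases, inversional joins were dispersed. The 61798 inversional joins of the 20 libraries fell on 8999 positions, and of 45937 distinct combinations of bait end, prey position and overlap, 1601 (3.49%) recurred in more than 1 library. The most used position, 114576136, held 0.181% ± 0.240 of a library's inversional joins (SD, n = 20) and occurred in 15 libraries. The next were 114575842 with 0.159% ± 0.186 and 114573248 with 0.156% ± 0.136. For deletional joins the leading positions were 114570993 with 0.116% ± 0.0805 and 114573636 with 0.116% ± 0.0509, each found in 20 of 20 libraries. Nearly all joins at these positions were marked for mapping, so each stands for a repeat unit rather than a unique base. The sequences around them, rebuilt from read bases that the alignments gave as matches to mm9, are shown on the minus strand with the junction base, the last base kept, in capitals. They cover chr12:114576116-114576156, chr12:114575822-114575862, chr12:114570973-114571013 and chr12:114573616-114573656.
Inversional, 114576136: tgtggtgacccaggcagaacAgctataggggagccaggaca
Inversional, 114575842: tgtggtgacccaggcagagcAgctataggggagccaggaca
Deletional, 114570993: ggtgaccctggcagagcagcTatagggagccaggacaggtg
Deletional, 114573636: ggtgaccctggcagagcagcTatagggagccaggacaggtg

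These sites share AGCT, and the inversional and deletional joins stopped at opposite sides of it. The motif was searched as the letters AGCT, which read the same on both strands, over chr12:114567000-114579999, of which 98.3% of bases could be rebuilt. Break points inside a copy of the motif make up 5.56% of all break points of the stretch. Among direct inversional joins, whose break point is unambiguous, 14.7% ± 2.60 (Sµ bait, SD, n = 13) and 14.4% ± 2.25 (Sγ3 bait, SD, n = 7) fell inside it. Of these, 78.8% ± 13.9 and 81.9% ± 6.85, respectively, broke between the A and the G as read on the minus strand. Breaks between the G and the C made up 19.6% ± 14.2 and 13.4% ± 5.10, and breaks between the C and the T 1.64% ± 2.40 and 4.77% ± 3.34. In deletional joins the order was turned around, with 9.32% ± 4.88 and 5.54% ± 2.34 between A and G against 73.7% ± 7.22 and 80.8% ± 2.21 between C and T. The end that was kept, upstream in an inversion and downstream in a deletion, thus held only the outer base of the motif in most cases.

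This mirror image was present in every library tested. The share of breaks between A and G was higher in inversional than in deletional joins by 69.4 points with the Sµ bait (higher in 13 of 13 libraries, permutation of signs, p = 0.000180, 0.000720 adjusted over 4 tests added after the data had been seen). For Sγ3 as donor it was 76.3 points (7 of 7, exact permutation of signs, p = 0.0156, adjusted 0.0208). The lowest inversional library, A150 anti-CD40+IL4 Sµ replicate 4, had 51.1% of 92 breaks there, and the highest deletional library had 16%. Joins with inserted bases, which the comparison did not use, showed the same order, with 83.0% ± 5.42 and 82.0% ± 4.49 of inversional breaks inside the motif between A and G, and 85.4% ± 2.82 and 85.0% ± 1.93 of deletional ones between C and T (SD, n = 13 and 7). Without marked joins the differences were 54.5 and 73.4 points. How often direct joins fell in AGCT also differed with the Sµ bait, 9.09% ± 1.15 of deletional against the 14.7% of inversional joins (adjusted p = 0.000880, permutation of signs over 13 libraries), but without marked joins this difference was -0.40 points. With the Sγ3 bait, 12.7% ± 0.863 of direct deletional joins fell in it (exact permutation of signs, adjusted p = 0.0313). That call was lost when any of 6 of the 7 libraries was left out, and without marked joins the difference was -4.45 points.

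**Figure D4:**
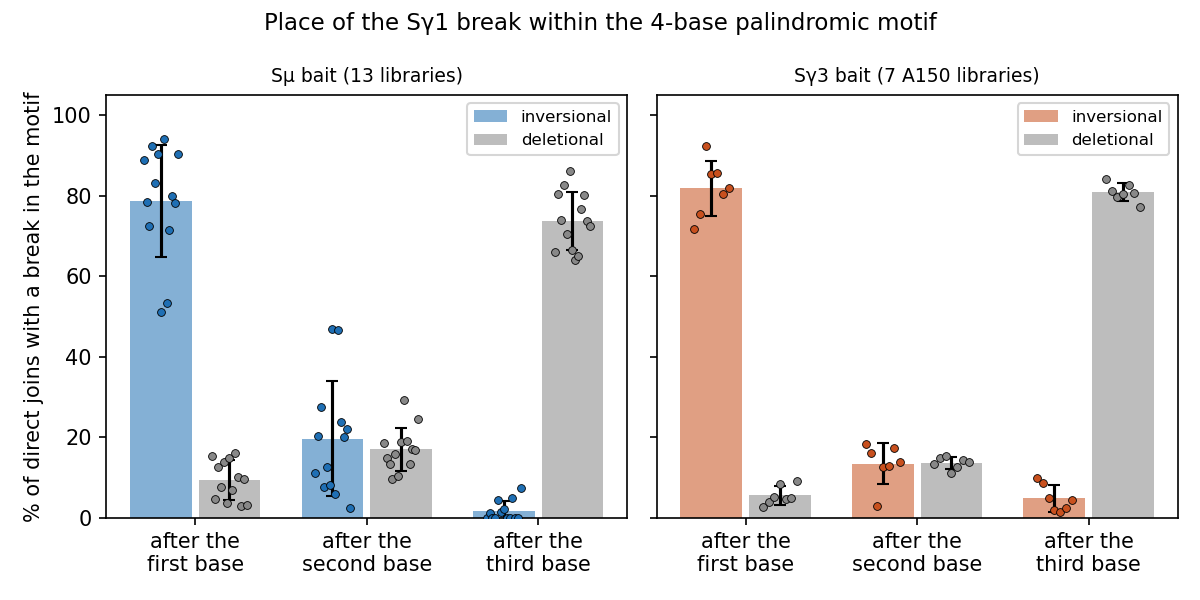
Place of the break inside the 4-base palindromic motif, read on the minus strand, for direct inversional (coloured) and deletional (grey) joins, as the mean percentage with SD over libraries and a point for each library. Inversional breaks lie mostly after the first base (78.8% and 81.9%) and deletional breaks mostly after the third (73.7% and 80.8%).

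The structure of the joins depended on orientation most clearly with the Sγ3 bait. There, 4.43%, 5.86% and 5.07% of inversional joins after anti-CD40+IL4 and 5.09%, 5.90%, 5.17% and 6.29% after the TGF-β mix had an MH over 3 bp. The same libraries had 10.4%, 10.4% and 10.3%, and 10.48%, 10.9%, 11.8% and 10.6%, of deletional joins in that class. Inversional values were lower in 7 of 7 libraries, by 5.29 points (exact permutation of signs, p = 0.0156, the smallest it allows, adjusted 0.0195). Direct joins were more frequent among inversions, 31.0% ± 1.01 against 24.05% ± 0.676, and so were insertions, 23.98% ± 1.54 against 20.6% ± 0.837 (SD, n = 7, adjusted p = 0.0195 for each by the same exact test). Without marked joins the excess of insertions was 0.31 points and did not pass. An MH of 1 to 3 bp was found in 39.6% ± 1.77 of inversional joins, and an inserted stretch of 5 bases or more in 3.54% ± 0.484.

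With the Sµ bait the picture turned on where in the bait the join lay. Over all joins, an MH over 3 bp was found in 6.24% ± 1.40 of inversional and 4.68% ± 0.653 of deletional joins (SD, n = 13). The difference of 1.56 points was positive in 10 of 13 libraries (permutation of signs, p = 0.00430, adjusted 0.0143). It was 0.74 points without duplicate marks and 0.73 with identical junctions taken once (adjusted p = 0.131 and 0.157), and -0.30 points without marked joins (p = 0.678, permutation). The excess lay in joins close to the primer. Inversional joins with fewer than 40 aligned bait bases, 15.6% ± 2.72 of the inversional joins, had an MH over 3 bp in 24.5% ± 7.54 of cases and held 59.4% ± 9.78 of all such MHs. The remaining inversional joins had 2.95% ± 0.751, below the 5.29% ± 0.766 of deletional joins with baits of that length. For joins with at least 40 bait bases the difference between orientations was -2.35 points (permutation of signs over 13 libraries, adjusted p = 0.000900), a direction shared with the Sγ3 bait (-5.84 points, adjusted p = 0.0174, exact). Of the 1230 inversional joins with an MH over 3 bp at any bait length, 184 ended at 114668862 and 144 at 114668867. The stretch of the Sµ bait that holds these ends, chr12:114668809-114668894 on the minus strand, and the join ending at 114668862 that recurred in the most libraries (4) are shown. The latter shares 5 bases, the first capitals, with chr12:114575843-114575867.
Sµ bait: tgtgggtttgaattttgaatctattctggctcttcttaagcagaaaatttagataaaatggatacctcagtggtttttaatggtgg
Sµ, inversional, bait end 114668862: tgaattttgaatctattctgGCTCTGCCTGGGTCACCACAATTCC

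The donor affected inversional and deletional joins differently. From Sµ to Sγ3 in A150 cells, an MH over 3 bp changed by -0.71 points in inversional joins (exact stratified permutation test, p = 0.238) and rose by 5.95 points in deletional joins (p = 0.000816). The difference between these changes was -6.65 points (p = 0.000816, 0.00250 adjusted over the 7 added tests), and -3.44 points with at least 40 bait bases (adjusted p = 0.00400, exact). With that limit, inversional joins themselves had more MHs over 3 bp with the Sγ3 than with the Sµ bait, by 2.67 points (exact stratified permutation test, adjusted p = 0.00408). The excess in deletional joins with the Sγ3 bait was greatest for baits of 50 to 59 bases, where 25.8% ± 2.40 of deletional but 7.58% ± 1.39 of inversional joins had an MH over 3 bp (SD, n = 7). The corresponding difference was 7.79 points for direct joins (adjusted p = 0.00250), 3.58 points for insertions (0.0171, exact) and -263 bp for the median position (0.0143, exact). The contrast of insertions was lost without marked joins (1.01 points, adjusted p = 0.335, exact) and with at least 40 bait bases (1.72 points, adjusted p = 0.224, exact). The contrast of positions was 3807 bp without marked joins, so its direction depended on them. Direct inversional joins were 3.20 points more frequent with the Sγ3 than with the Sµ bait (exact stratified permutation test, p = 0.00163, adjusted 0.00612), but only 0.44 points with at least 40 bait bases, and the call was lost without A150 anti-CD40+IL4 Sγ3 replicate 1 (2.93 points, adjusted p = 0.0786). The bait difference in insertions did not pass the test over all inversional joins (-0.93 points, p = 0.447, exact), but with at least 30 prey and 50 bait bases it was -5.27 points (adjusted p = 0.00306, exact).

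**Figure D5:**
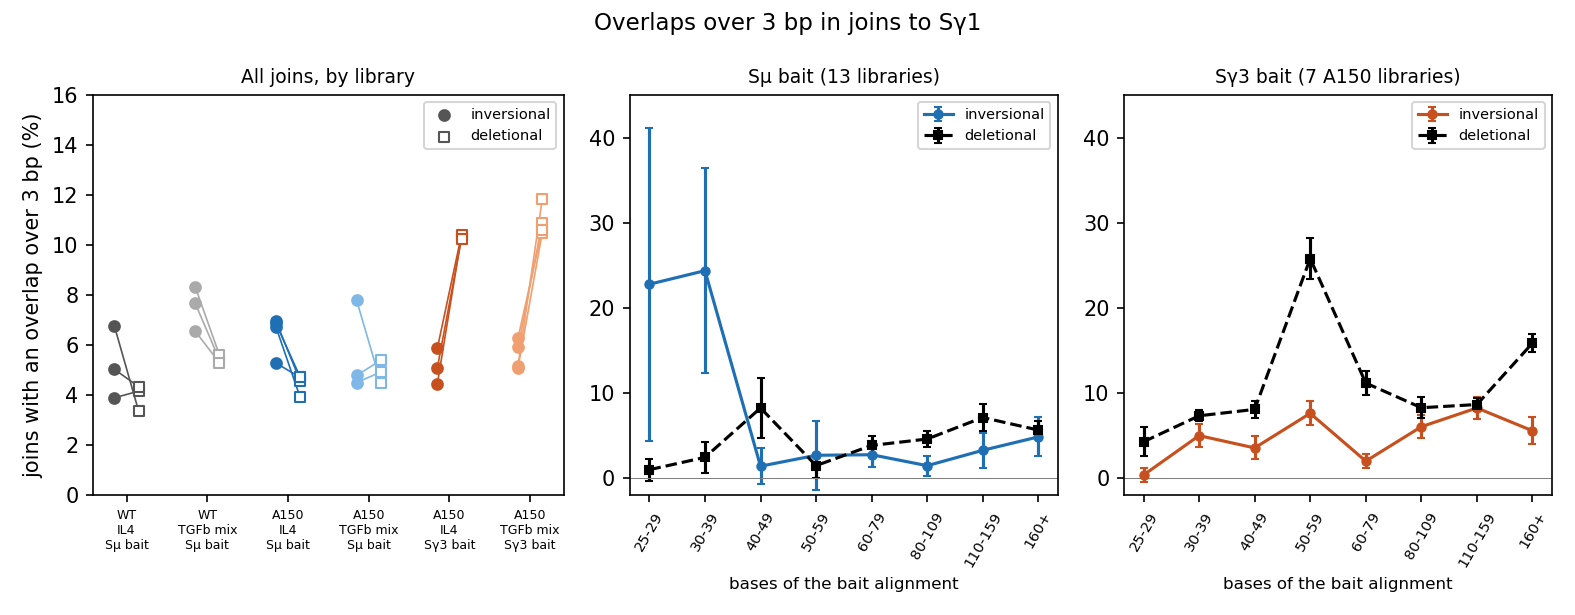
Percentage of Sγ1 joins with an MH over 3 bp, in each library for inversional (circles) and deletional (squares) joins of all 6 groups (left), and by the number of aligned bait bases with the Sµ bait (middle) and the Sγ3 bait (right), as means with SD over libraries. With the Sµ bait the inversional mean exceeds the deletional one below 40 bait bases and, by less, at 50 to 59 bases (2.64% against 1.43%), and with the Sγ3 bait it lies below at every length.

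No genotype or stimulation difference in the structure of inversional joins passed its adjusted test. In WT and A150 cells with the Sµ bait, direct joins made up 29.6% ± 1.26 and 27.7% ± 3.10 after anti-CD40+IL4, and 27.8% ± 3.38 and 28.1% ± 1.55 after the TGF-β mix. Insertions made up 27.8% ± 2.56 and 26.1% ± 2.41, and 26.7% ± 0.397 and 23.5% ± 2.01, respectively. An MH over 3 bp was found in 5.22% ± 1.44 and 6.45% ± 0.791, and in 7.52% ± 0.899 and 5.69% ± 1.82 (SD, n = 3 libraries, and 4 for A150 with anti-CD40+IL4). The genotype differences were -0.81, -2.46 and -0.30 points (exact stratified permutation tests, adjusted p = 0.624, 0.132 and 0.721). The stimulation differences over all 3 pairs of groups were -0.89, -0.63 and 0.68 points (adjusted p = 0.501, 0.572 and 0.401, exact stratified permutation tests). In 2 comparisons the libraries did not overlap. Insertions after the TGF-β mix were at 21.2% to 24.8% in A150 and 26.2% to 27.0% in WT with the Sµ bait (exact permutation test, p = 0.100, the smallest it allows). Direct joins in A150 with the Sγ3 bait were at 29.6% to 30.86% after the TGF-β mix and 30.88% to 32.8% after anti-CD40+IL4 (exact permutation test, p = 0.0286, the smallest it allows, adjusted 0.167 over 35). A p above the threshold does not show that the structure was alike.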

How the data were processed

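Junctions were analysed from 26 CSR-HTGTS libraries, grouped by their titles. The genotype label names the same genotype in each, while the label for the target locus follows the bait (WT for Sµ, A150 for Sγ3). The submitters' processing notes name Bowtie2 and mm9, and the versions and settings of the authors' pipeline are not given in the sources used here. The deposited tables list a junction per line with positions on genome and read, and the authors' filter marks, and hold neither counts per feature nor a normalized unit. Overlap was the last bait base minus the first prey base on the read plus 1, with negative values as insertions. Measures were computed per library with Python 3.11.15, numpy 2.4.6, pandas 2.3.3 and scipy 1.17.1, plots with matplotlib 3.10.9.

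Group differences were tested on library values by exact permutation within strata, and orientation within libraries by permutation of signs (exact for 7 libraries, 100000 resamples for 13), two-sided, with Benjamini-Hochberg adjustment over 15 differences between groups, 10 within libraries and 7 and 4 added ones. The tests were tried on simulated data for group differences in inversional share and for the orientation difference in MHs over 3 bp. The other measures and contrasts were not simulated. Alternatives changed which joins counted (mapping marks, duplicates, alignment lengths), the overlap limit, the measure of position, the replicate block and the libraries. The joins, windows and tests were chosen with earlier results of these data known. Bins, sites and example junctions followed fixed rules (most joins, or first by replicate and read name among unmarked joins with matches over 25 bases on each side), while the deletional examples and the join at 114668862 were picked afterwards. Sequences come from read bases matching mm9.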

Additional observations from a re-analysis of the deposited data

Results flagged for a closer look

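In the A150 libraries with the Sµ bait and anti-CD40+IL4, replicate 2 had an inversional share of 17.7%, far above the other 3 libraries at 14.02% to 14.2%, and its gap to the next library was 0.957 of the group's range. In the same group, replicate 1 had the lowest share of direct inversional joins, 23.0%, at a gap of 0.896 of the range, and the lowest share of inversional joins with an MH over 3 bp, 5.27%, at a gap of 0.864. Chance alone sets a library apart in this way in about 1 of 20 groups, and 10 combinations of group and measure were examined.

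The effect of the bait on inversional joins differed between stimulations in A150 cells for 2 measures before adjustment. For the inversional share, the Sγ3 minus Sµ difference was 4.11 points larger with the TGF-β mix than with anti-CD40+IL4 (exact permutation test of the difference, p = 0.0212, 0.212 adjusted over 10 such tests). For insertions, it was 4.32 points larger (-3.09 points with anti-CD40+IL4 and 1.22 points with the TGF-β mix, exact p = 0.0465, adjusted 0.214). Neither passed the adjusted threshold.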

How the results depend on the processing

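Over 36 results and 12 other settings, 263 of 334 values kept their direction and their side of the threshold. Those that did not are given here, as percentage points or bp, and their cause was not tested. The genotype difference in inversional share, the place of the break inside AGCT and the lower share of MHs over 3 bp in inversional joins with the Sγ3 bait kept theirs in every setting run for them, except the first in the replicate block. The limit of 40 bait bases, the first junction of each read, the marked joins alone, the span of the marked joins and the tests called added were chosen after seeing the data.

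Without joins marked for mapping, values that turned were Sγ1 minus Sε with the Sγ3 bait (4.98), the bait difference in MHs over 3 bp (0.833), the stimulation difference in direct joins (3.40), inversional minus deletional with the Sµ bait for direct joins (1.098) and MHs (-0.303), direct joins within AGCT (-0.401 with Sµ, -4.45 with Sγ3) and the bait difference in position between orientations (3807). Calls lost were the bait difference in direct joins (1.64) and position (-205), the stimulation difference in position (-341), the Sγ3 excess of insertions (0.310) and its contrast between baits (1.01). Calls gained were the bait difference in inversional share (7.02) and the genotype difference in position (-618). On marked joins alone, the genotype difference in MHs (0.112), the bait difference in inversional share (-0.234) and the contrast of positions (84.6) turned, and the bait (-194) and stimulation (-175) differences in position and the upstream genotype difference (2.58) were lost.

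With duplicate marks left out, or identical junctions taken once, the bait difference in MHs (0.0320 and 0.0252), the genotype difference in direct joins (0.193 and 0.0731) and the Sµ orientation difference in direct joins (0.133 and 0.166) turned. The contrast of insertions between baits (2.20 and 2.09), the Sµ orientation difference in MHs (0.740 and 0.725) and the Sγ3 difference in AGCT use (1.55 and 1.51) were lost, and the genotype difference in position (-293.5 and -284) was gained. With at least 40 bait bases, or 30 prey and 50 bait bases, values that turned were the bait difference in MHs (2.67 and 3.09), the genotype difference in MHs (0.0218 and 0.0389), and the Sµ orientation differences in MHs (-2.35 and -2.07) and direct joins (2.21 and 1.85). The bait difference in direct joins (0.442 and 0.403) and the contrast of insertions (1.72 and 1.41) were lost, and the Sµ orientation difference in insertions (2.53 and 2.58) was gained. The former limit also turned the stimulation difference in insertions (0.0402). The latter gained the bait difference in insertions (-5.27) and the genotype difference in position (-286) and lost the Sγ3 difference in AGCT use (1.21). Taking joins without insertions as the total lost the bait difference in direct joins (3.73) and turned the Sµ orientation difference (0.102). An MH over 4 bp turned the genotype difference (0.609) and gained the bait difference (-1.11). Mean positions gained the genotype difference (-222) and lost the contrast between baits (-144), as did the span of the marked joins (-3.65).

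Leaving out a library in turn gave 3.56 to 4.19 for the genotype difference in inversional share. The bait difference in direct joins ranged from 2.43 to 3.56, the genotype differences from -3.17 to -1.88 for insertions (called without WT anti-CD40+IL4 replicate 2 or A150 anti-CD40+IL4 replicate 3), from -0.823 to 0.0854 for MHs and from -1.57 to 0.0996 for direct joins. The Sµ orientation difference in direct joins ranged from -0.628 to 0.139, and the Sγ3 difference in AGCT use from 1.11 to 2.03. Same-numbered libraries did not deviate together in most pairs of groups (correlations -0.483 to 0.766, all 3 being positive between stimulations in A150 with the Sγ3 bait and between genotypes with the TGF-β mix), so the numbers were not taken as pairs. A replicate block permutes signs over few same-numbered pairs, which limits how small its p can be. A call lost there does not show that the difference was lost. With this block, every group difference that had passed its test kept its direction and had an adjusted p of 0.0547 to 0.125. These were the genotype differences in inversional share (4.147), in its excess over Sε (4.05), in the upstream 3 kb (19.2) and in the core (3.65), the bait differences in direct joins (3.63) and position (-800.3), the stimulation difference in position (-430.0), and the contrasts between baits in MHs (-6.80), direct joins (8.29), insertions (3.29) and position (-295.5).

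Mice were 129Sv while mm9 derives from C57BL/6, and marked joins cannot be placed among repeats. Small libraries limit Sε values in WT with the TGF-β mix and all WT values with the Sγ3 bait.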
